A study of Mus musculus with 34 samples.

Results

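The Bcl2 family decides whether a cell keeps its mitochondria intact or dies by apoptosis, and 10 of its genes were followed here in CD4+ spleen cells of 5 inbred mouse strains. They are the survival genes Bcl2, Bcl2l1 (Bcl-xL) and Mcl1, the BH3-only death genes Bcl2l11 (Bim), Bbc3 (Puma), Pmaip1 (Noxa), Bid and Bad, and the effector genes Bax and Bak1. They were listed by name, with earlier results of these data known. Each was read from its brightest probe set over all arrays among those annotated to 1 gene symbol. Of the 10 genes, 9 had such a probe set, 1 each, and all 9 passed the limit on low values. These 9 stand among 11413 genes that passed it, of 19938 genes with a probe set of 1 symbol. Bax was not analysed here.

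The mice were females of strains 129X1/SvJ, A/J, Balb/c, DBA/2J and C57BL/6J, 8 weeks old. Spleen cells were sorted on magnetic CD4 beads, and the RNA was hybridised to Affymetrix arrays either without stimulation (T0) or after 4 h with 10 ng/ml phorbol 12-myristate 13-acetate (PMA) and 1 uM ionomycin (T1). PMA activates protein kinase C and ionomycin raises cell calcium, so the pair bypasses the T cell receptor and acts on other cell types too. A/J and C57BL/6J had 4 arrays at each time and the other strains 3, which gives 34 arrays. Replicates, biological by their labels, carry numbers from 1 to 5 within a strain, and the labels do not say whether equal numbers at T0 and T1 mark 1 animal. The labels leave unclear whether T0 cells also spent the 4 h in medium, so time in culture and the stimulus cannot be told apart.

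The survival proteins hold the outer mitochondrial membrane intact by binding the BH3-only proteins and the effectors. When BH3-only proteins outnumber them, Bax and Bak1 open the membrane, cytochrome c leaves, and it assembles with Apaf1 to activate caspase-9. In resting T cells Bcl2 is kept up by interleukin-7 signals and Bim is its main opponent, whereas Bcl-xL is known as the survival protein that activated T cells and red cell precursors switch on. Mcl1 is a short-lived protein that lymphocytes need at every stage.

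Values are log2 intensities after robust multi-array averaging (RMA), which brings the arrays to nearly equal distributions; a difference is thus relative to the other genes of an array. Array medians ran from 5.28 to 5.39, and the number of arrays limits the precision. Differences were tested with limma over all 34 arrays, and a gene was called at a Benjamini-Hochberg adjusted p under 0.05 over the 11413 genes. Of the T cell markers, 8 of 10 were measured, with Cd4 strain means of 9.23 to 9.58 at T0 and Cd3e of 9.07 to 9.71. Levels of different probe sets do not rank cell types, so these values show only that the defining markers were measured above the limit. Markers of other cells were present as well and differed between strains. The B cell genes Cd79a and Cd79b had T0 strain means of 8.33 to 9.57 and of 9.83 to 10.8, and the red cell gene Alas2 ran from 5.80 to 11.5. Fewer cells of a type and less RNA per cell cannot be told apart in these bulk samples. The array Balb/c T1 replicate 2 correlated least with its group, at a mean r of 0.948.

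The promoters of the 3 survival genes are shown because these genes took opposite directions at T1. They are the 250 bases before a RefSeq transcription start in assembly GRCm38.p6, each read on the gene's own strand. Capitals mark a match to a motif of a factor activated by PMA or ionomycin. Bcl2 lies at chr1:106714291-106714540 on the minus strand, Bcl2l1 at chr2:152830718-152830967 on the minus strand (1 of 3 listed starts), and Mcl1 at chr3:95658471-95658720 on the plus strand.
Bcl2l1: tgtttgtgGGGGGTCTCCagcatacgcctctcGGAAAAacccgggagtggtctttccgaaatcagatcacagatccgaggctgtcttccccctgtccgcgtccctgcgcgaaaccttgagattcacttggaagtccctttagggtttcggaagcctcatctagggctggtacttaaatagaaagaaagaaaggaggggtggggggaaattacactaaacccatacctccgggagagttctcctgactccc
Bcl2: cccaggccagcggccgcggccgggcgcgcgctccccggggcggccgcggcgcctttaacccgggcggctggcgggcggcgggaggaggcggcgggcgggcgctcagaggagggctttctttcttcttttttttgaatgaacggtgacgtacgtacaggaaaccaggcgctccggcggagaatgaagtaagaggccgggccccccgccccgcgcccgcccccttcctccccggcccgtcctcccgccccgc
Mcl1: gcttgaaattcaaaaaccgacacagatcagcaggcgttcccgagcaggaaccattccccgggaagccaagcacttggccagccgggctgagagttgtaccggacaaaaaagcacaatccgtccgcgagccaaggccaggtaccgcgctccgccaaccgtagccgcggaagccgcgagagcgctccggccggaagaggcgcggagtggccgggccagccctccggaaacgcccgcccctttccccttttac
The Bcl2l1 window held 1 match to the NF-kappaB consensus, found in 7.25% of the 32851 promoter windows of this length, and 1 match to the NFAT core GGAAAA, found in 20.4%. The Bcl2 and Mcl1 windows held no match on either strand to these or to AP-1 (TGANTCA), CRE (TGACGTCA), EGR (GCGNGGGCG), E-box (CACGTG) or STAT (TTCNNNGAA) letters. All-window shares for those 5 were 6.75%, 1.55%, 4.7%, 6.02% and 7.02%. Of the 3 survival genes, the 2 that fell had windows rich in CpG, with 36 CpG pairs in Bcl2 and 26 in Mcl1. The Bcl2l1 window held 11, and the median over all windows was 6. Among other members that rose, Bid had 18 CpG pairs and no match, and Bak1 8 pairs and 1 NFAT match. Bad, which fell, had no match and 21 or 18 pairs by window. Without a called mean change, Bcl2l11 had 24 (1 EGR match) or 30 (no match). Bbc3 had 27 (2 NF-kappaB matches and 1 EGR), 23 (1 EGR) or 37 (1 E-box). A tie between letters and direction was not tested. The Bcl2l1 window printed is the one of its 3 with the most matches. The window starting at 152828490 held no match and 0 CpG pairs, and the one starting at 152831729 held 1 NFAT match, no NF-kappaB match and 12 CpG pairs. Letters in a window describe it and say nothing of binding.

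The comparison of T1 with T0 asks how the family's transcripts moved with stimulation. Averaged over strains, Bcl2l1 rose 3.76-fold, the largest change among the 9 genes, while Bcl2 fell 1.94-fold and Mcl1 1.64-fold. Among death genes Bid rose 1.54-fold, Pmaip1 1.22-fold and Bak1 1.19-fold, Bad fell 1.19-fold, and Bcl2l11 and Bbc3 did not pass the test. In all 7 of the 9 genes were called, 4 up and 3 down. That share lies near the background, since 82.3% of all genes were called (36% up and 46.3% down), so the count alone shows nothing particular to the family. The median change of the 9 genes was -0.002 on the log2 scale, against -0.07 over all genes.

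**Figure D1:**
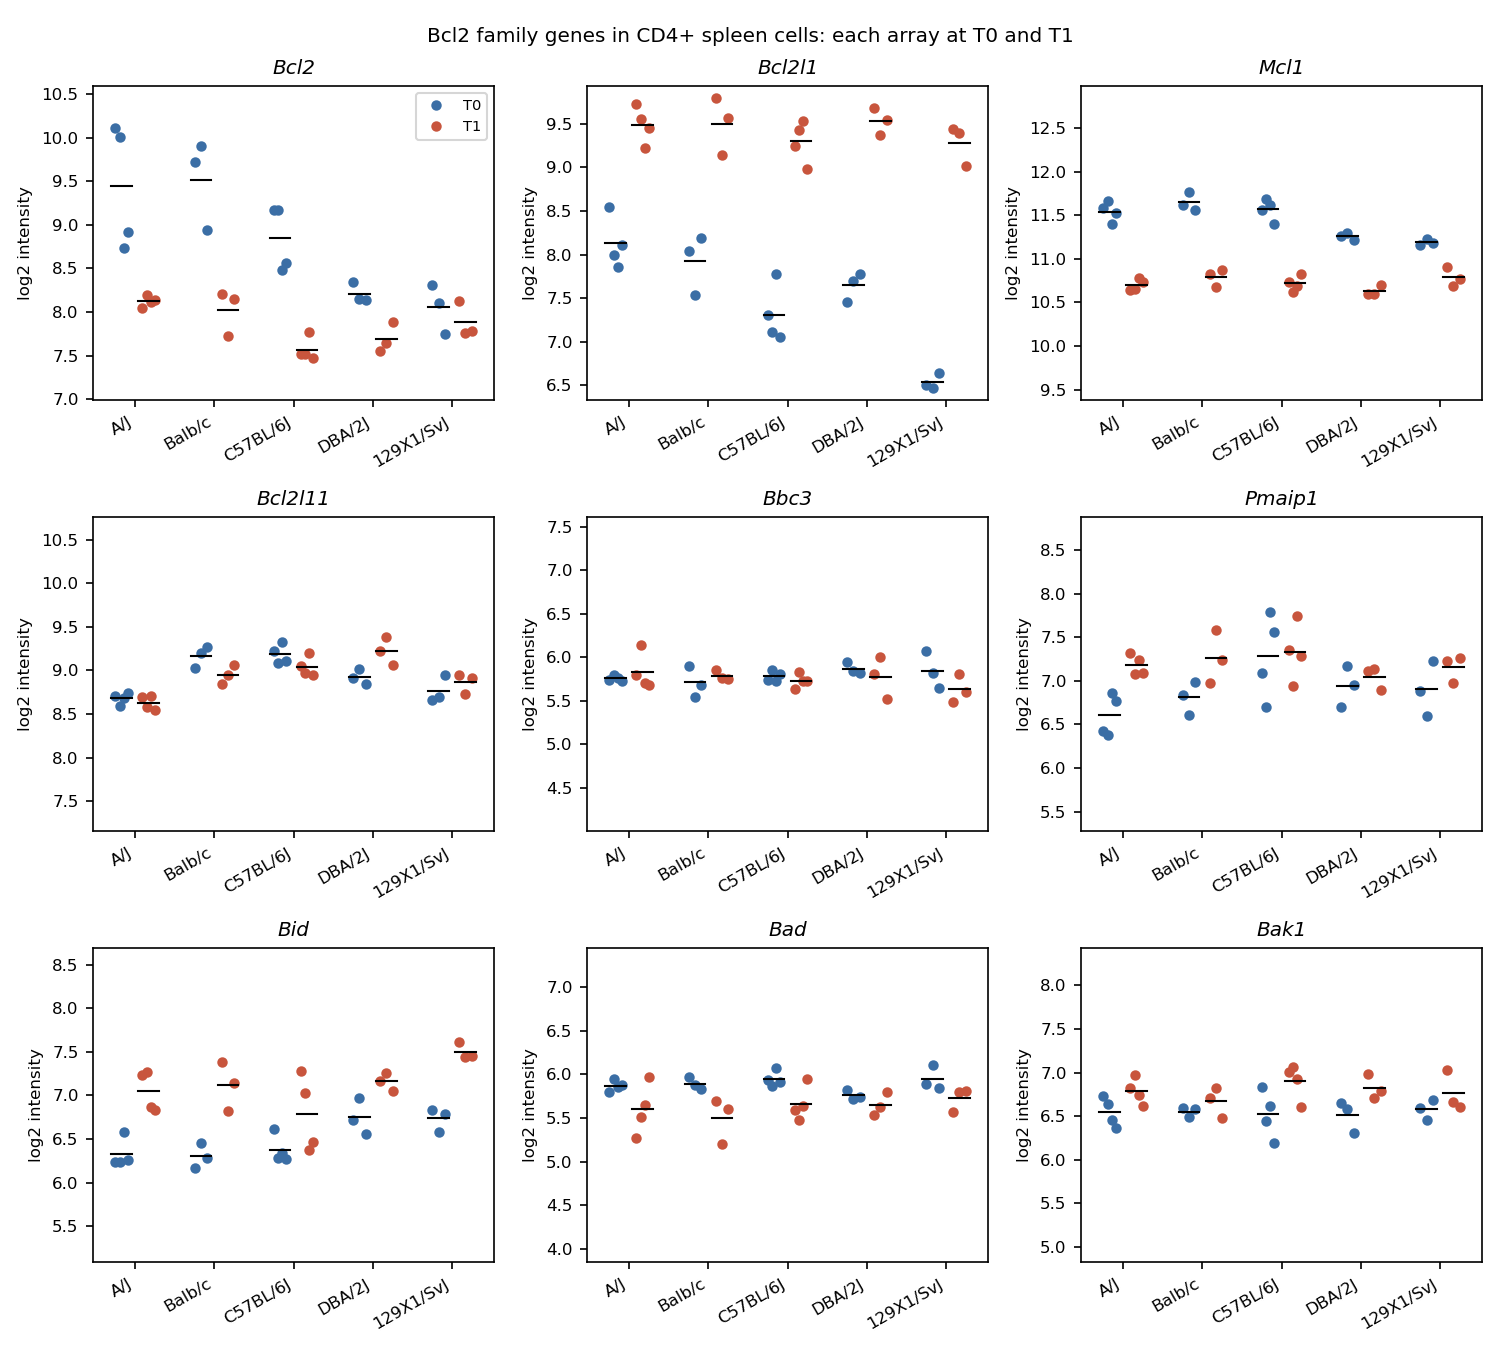
Log2 intensity of the 9 Bcl2 family genes on each of the 34 arrays, by strain, T0 in blue and T1 in red, with group means as black bars (3 or 4 arrays each). Every panel spans the same number of log2 units. The T0 and T1 arrays do not overlap for Bcl2l1 and Mcl1, as for 26.7% of all genes.

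Bcl2l1, which encodes Bcl-xL, rose in every strain and on every pair of arrays. At T0 its values were 8.54, 7.99, 7.86 and 8.11 in A/J mice, 8.04, 7.54 and 8.19 in Balb/c mice, and 7.31, 7.11, 7.77 and 7.05 in C57BL/6J. They were 7.46, 7.70 and 7.78 in DBA/2J mice and 6.51, 6.47 and 6.64 in 129X1/SvJ. The 129X1/SvJ arrays were the lowest of all at T0 and overlapped no other strain. At T1 the values were 9.73, 9.56, 9.23 and 9.45 in A/J mice, 9.79, 9.15 and 9.57 in Balb/c mice, and 9.25, 9.43, 9.54 and 8.99 in C57BL/6J. They were 9.68, 9.37 and 9.54 in DBA/2J mice and 9.44, 9.39 and 9.02 in 129X1/SvJ. Every T1 array lay above every T0 array, and T1 exceeded T0 in 17 of 17 pairs of the same strain and number. The 17 T0 and 17 T1 arrays of 26.7% of all genes did not overlap either. The mean change was 1.91 (SE 0.0833, adjusted p = 2.67e-19).

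Bcl2 itself, the founding survival gene, fell. Its T0 values were 10.12, 10.01, 8.73 and 8.92 in A/J mice, 9.72, 9.90 and 8.94 in Balb/c mice, and 9.17, 9.17, 8.49 and 8.56 in C57BL/6J. DBA/2J had 8.34, 8.15 and 8.13, and 129X1/SvJ had 8.31, 8.10 and 7.75. At T0 the arrays numbered 1 and 2 lay above those numbered 3 to 5 in every strain, a split seen after the values were known. As Bcl2's own values drew this split, fits of Bcl2 within a part are no separate support for its results. The first part holds 1 DBA/2J array per time, and the second 1 array per time of Balb/c and of 129X1/SvJ. Strain values and tests within a part thus rest partly on single arrays. At T1 the values were 8.05, 8.20, 8.11 and 8.14 in A/J mice, 8.20, 7.73 and 8.14 in Balb/c mice, and 7.52, 7.51, 7.77 and 7.47 in C57BL/6J. The T1 values were 7.55, 7.65 and 7.88 in DBA/2J mice and 8.12, 7.76 and 7.78 in 129X1/SvJ. T0 and T1 arrays were separate in 4 strains and overlapped in 129X1/SvJ mice, and T1 was lower in 16 of 17 pairs. The shares of all genes with such separation within strains or such pair counts were not computed.
The mean change in Bcl2 was -0.95 (SE 0.113, adjusted p = 5.56e-09). It was -1.30 within the arrays numbered 1 and 2 and -0.55 within those numbered 3 to 5. The split followed the T0 values of Bcl2, so a larger fall in the first part is partly built in. The T cell marker score (mean log2 level of the 8 markers, centred on 0 over the arrays) also fell in every strain: its strain means lay between 0.0784 and 0.397 at T0 and between -0.565 and 0.000272 at T1. Of the 8 markers 5 fell and 2 rose. The B cell score, made likewise, fell from strain means of 0.117 to 1.29 to means of -0.81 to -0.332 (8 of 11 markers fell, 3 rose), and all 9 neutrophil markers fell; the part of these cells in the members' changes was not tested. The T cell score was also used as a covariate, an alternative added after the data were seen. The change was then -0.11 in Bcl2 (SE 0.317, adjusted p = 0.806), 1.57 in Bcl2l1 (SE 0.254, adjusted p = 1.13e-05) and -0.55 in Mcl1 (SE 0.116, adjusted p = 0.000327). The score itself fell at T1, so it shares time with the contrast and widens the SE. The Bcl2 estimate itself was smaller than in the main fit, although a call lost with this covariate need not in general mean a smaller change.

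Mcl1 fell in every strain, with the smallest standard error of the 9 genes. At T0 it read 11.58, 11.66, 11.40 and 11.52 in A/J mice, 11.61, 11.77 and 11.56 in Balb/c mice, and 11.57, 11.69, 11.62 and 11.40 in C57BL/6J. It read 11.26, 11.30 and 11.22 in DBA/2J mice and 11.16, 11.23 and 11.18 in 129X1/SvJ. The strains thus formed a higher set of 3 and a lower set of 2 with no overlap between the sets. These sets were drawn after the values were seen, and the share of all genes that split so was not computed. At T1 it read 10.64, 10.65, 10.78 and 10.73 in A/J mice, 10.83, 10.67 and 10.87 in Balb/c mice, and 10.74, 10.62, 10.69 and 10.82 in C57BL/6J. The T1 readings were 10.60, 10.60 and 10.70 in DBA/2J mice and 10.91, 10.69 and 10.76 in 129X1/SvJ. All 17 pairs fell, and no T1 array reached a T0 array. Such a separation, in either direction, held for 26.7% of all genes. The mean change was -0.72 (SE 0.0381, adjusted p = 4.17e-17). Time took 85.5% of the sum of squares of Mcl1, 81.6% of that of Bcl2l1 and 46.4% of that of Bcl2.

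Bid, a BH3-only protein that caspase-8 cleaves to link death receptors to the mitochondria, was the death gene with the largest change. Its T0 values were 6.24, 6.24, 6.58 and 6.26 in A/J mice, 6.17, 6.45 and 6.28 in Balb/c mice, and 6.61, 6.28, 6.33 and 6.27 in C57BL/6J. DBA/2J had 6.72, 6.97 and 6.55 and 129X1/SvJ 6.84, 6.58 and 6.79. At T1 it read 7.24, 7.27, 6.86 and 6.84 in A/J mice, 7.39, 6.83 and 7.15 in Balb/c mice, and 7.28, 7.02, 6.37 and 6.47 in C57BL/6J. The T1 readings were 7.17, 7.26 and 7.05 in DBA/2J mice and 7.62, 7.44 and 7.45 in 129X1/SvJ. T1 was higher in 17 of 17 pairs, and the groups overlapped only in C57BL/6J, again without a computed share over all genes. The mean change was 0.63 (SE 0.0757, adjusted p = 7.72e-09), and it was 0.30 (SE 0.23, adjusted p = 0.319) with the T cell score as a covariate.

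Bcl2l11, the gene of Bim, showed no mean change, at -0.002 with a 95% interval of -0.0907 to 0.0866. Its T0 values were 8.71, 8.59, 8.68 and 8.74 in A/J mice, 9.02, 9.20 and 9.27 in Balb/c mice, and 9.23, 9.08, 9.33 and 9.11 in C57BL/6J. DBA/2J had 8.91, 9.01 and 8.84, and 129X1/SvJ 8.66, 8.70 and 8.95. At T1 they were 8.69, 8.58, 8.70 and 8.54 in A/J mice, 8.84, 8.95 and 9.07 in Balb/c mice, and 9.05, 8.97, 9.19 and 8.95 in C57BL/6J. DBA/2J had 9.22, 9.38 and 9.06 and 129X1/SvJ 8.95, 8.73 and 8.92. A/J arrays were low at both times. T1 was higher in 3 of 3 DBA/2J pairs and lower in 3 of 3 Balb/c pairs and 4 of 4 C57BL/6J pairs. Strain took 67.3% of the sum of squares of Bcl2l11 and time 0.0877%, against medians over all genes of 9.9% and 45.8%.

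The other death genes and the effector had smaller changes. Pmaip1, the gene of Noxa, which binds Mcl1, ran from 6.38 to 7.79 with a median of 6.87 at T0 and from 6.90 to 7.75 with a median of 7.23 at T1. Its change was 0.29 (SE 0.0915, adjusted p = 0.00527), with 13 of 17 pairs higher. Bak1, the effector, ran from 6.19 to 6.83 with a median of 6.58 at T0 and from 6.48 to 7.07 with a median of 6.79 at T1. Its change was 0.25 (SE 0.0625, adjusted p = 0.000664), with 15 of 17 pairs higher. Both genes overlapped widely between the times. Bad, which growth factor signals inactivate by phosphorylation, ran from 5.72 to 6.10 with a median of 5.88 at T0 and from 5.20 to 5.97 with a median of 5.63 at T1. Its change was -0.26 (SE 0.0582, adjusted p = 0.000209), with 14 of 17 pairs lower. Bbc3, the p53 target Puma, ran from 5.55 to 6.07 with a median of 5.80 at T0 and from 5.48 to 6.14 with a median of 5.76 at T1, a change of -0.04 (95% interval -0.146 to 0.0669, adjusted p = 0.484). Bad and Bbc3 lie close to the limit of 5.327 below which a gene was left out.
Within the arrays numbered 3 to 5 the calls of Pmaip1 (0.08, adjusted p = 0.422), Bak1 (0.15, adjusted p = 0.15) and Bad (-0.11, adjusted p = 0.236) were lost. With the T cell score as a covariate the change was -0.16 in Pmaip1 (SE 0.275, adjusted p = 0.68), 0.46 in Bak1 (SE 0.193, adjusted p = 0.0547) and -0.27 in Bad (SE 0.184, adjusted p = 0.252). These SEs were larger than in the main fit, and the estimates of Bak1 and Bad were no closer to no change.

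The comparison of each strain's T1 with its T0 asks whether these changes were shared. Bcl2l1, Mcl1 and Bid were called in all 5 strains in one direction, as were 39.4% of all genes. Bcl2l1 rose by 1.36 in A/J (SE 0.17), 1.58 in Balb/c (SE 0.196), 1.99 in C57BL/6J (SE 0.17), 1.89 in DBA/2J (SE 0.196) and 2.74 in 129X1/SvJ (SE 0.196). The last is a 6.7-fold rise from the lowest start. Mcl1 changed by -0.84, -0.86, -0.85, -0.63 and -0.40 in the same order of strains, with SEs of 0.0779 to 0.0899. Bcl2 fell by 1.32 in A/J mice, 1.49 in Balb/c mice and 1.28 in C57BL/6J mice, with SEs of 0.231 to 0.267. It was not called in DBA/2J (-0.51, adjusted p = 0.0981) or 129X1/SvJ (-0.17, 95% interval -0.712 to 0.378). In DBA/2J the change of Bcl2 was -0.79 within the arrays numbered 1 and 2, which hold 1 DBA/2J array per time. It was -0.38 within those numbered 3 to 5. With the T cell score as a covariate Bcl2 changed by -0.65 in A/J (adjusted p = 0.108), -0.84 in Balb/c (adjusted p = 0.0459), -0.63 in C57BL/6J (adjusted p = 0.104), 0.68 in DBA/2J (adjusted p = 0.33) and 0.87 in 129X1/SvJ (adjusted p = 0.141). Mcl1 then lost its calls in DBA/2J (-0.39, adjusted p = 0.11) and 129X1/SvJ (-0.19, adjusted p = 0.41).
Bid rose by 0.72 in A/J mice, 0.82 in Balb/c mice, 0.41 in C57BL/6J mice, 0.41 in DBA/2J mice and 0.77 in 129X1/SvJ. Its DBA/2J call (adjusted p = 0.0471) was lost in 16 of the 34 refits without 1 array, and the adjusted p reached 0.182 without DBA/2J T0 replicate 4. Its C57BL/6J call (adjusted p = 0.0209) was lost without C57BL/6J T1 replicate 1 or 2 or T0 replicate 2 or 4, with adjusted p up to 0.144. Bcl2l11 was called in DBA/2J alone among the 5 tests, at 0.30 (adjusted p = 0.0134), and lost that call without DBA/2J T1 replicate 3 (0.0996) or T0 replicate 4 (0.0581). Its change ran from -0.21 in Balb/c mice, called after a second quantile normalization (-0.24, adjusted p = 0.0231), to 0.30 in DBA/2J mice, and the test that it differs between strains gave an adjusted p of 0.0927. Pmaip1 was called in A/J (0.57, adjusted p = 0.00949), Bak1 in C57BL/6J (0.38, adjusted p = 0.011), and Bad in Balb/c (-0.39, adjusted p = 0.0155) and C57BL/6J (-0.29, adjusted p = 0.0352).
A/J had 3 members up and 2 down, where 20.3% of all genes were up and 36.3% down (56.6% called). Balb/c had 2 up and 3 down (background 20.6% and 34.1%, 54.7% called), and C57BL/6J 3 up and 3 down (25.1% and 38.6%, 63.7% called). DBA/2J had 3 up and 1 down (23.8% and 36.2%, 60% called), and 129X1/SvJ 2 up and 1 down (21.6% and 34.7%, 56.3% called).

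**Figure D2:**
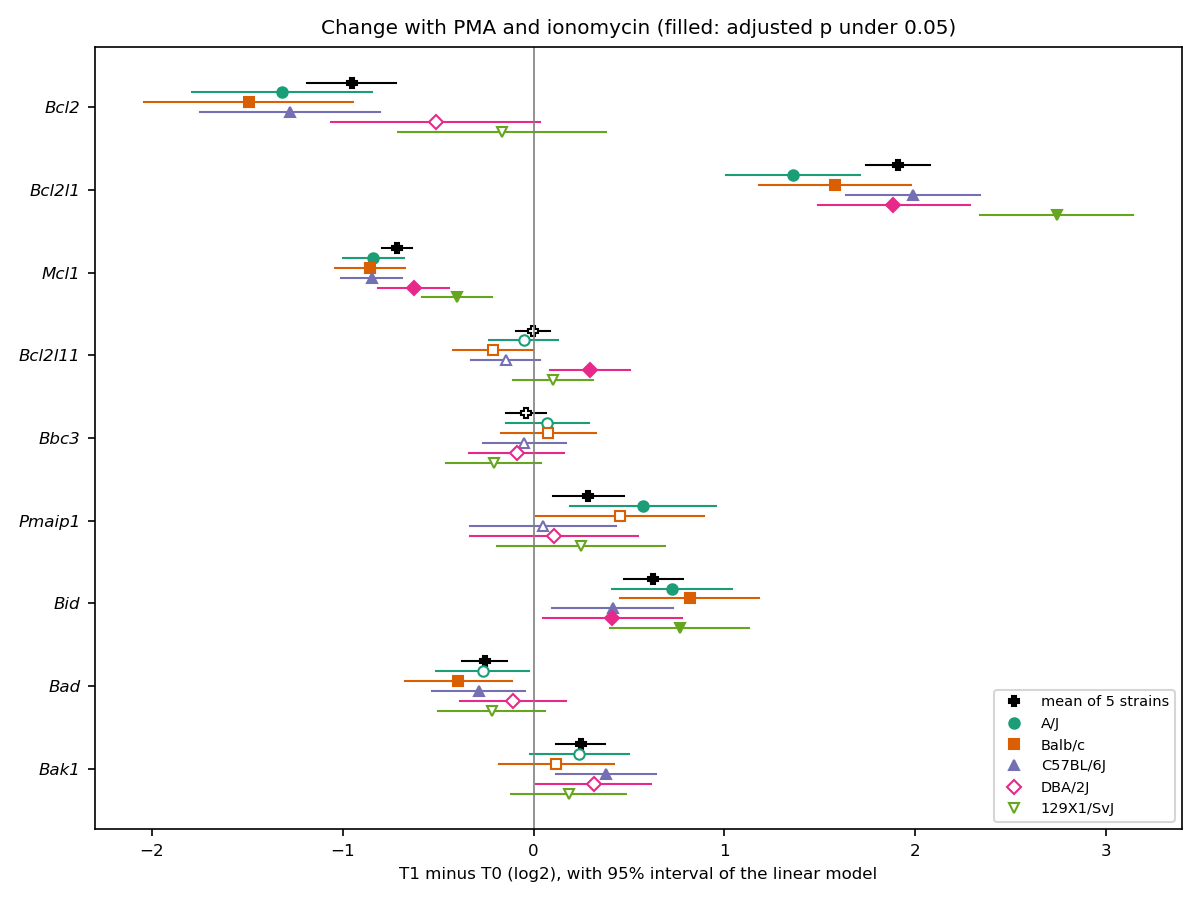
T1 minus T0 on the log2 scale (horizontal) for each of the 9 genes, as the mean of 5 strains and in each strain, with 95% intervals of the linear model; filled symbols passed an adjusted p of 0.05. Bcl2l1 lies right of 0 in every strain, from 1.36 to 2.74, Mcl1 left of 0 in every strain, and Bcl2 left of 0 with an interval that includes 0 in DBA/2J mice and 129X1/SvJ.

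Setting the strains side by side at T0 asks which members differ before stimulation. All 3 survival genes and Bcl2l11 differed between strains at T0, 4 of 9 genes where 18.5% of all genes did. The highest strain mean exceeded the lowest by 1.59 for Bcl2l1 (adjusted p = 7.61e-07), 1.46 for Bcl2 (adjusted p = 3.97e-05), 0.51 for Bcl2l11 (adjusted p = 0.000116) and 0.46 for Mcl1 (adjusted p = 0.00026). 129X1/SvJ had the lowest mean in each of the 3 survival genes. For Bcl2 the order was Balb/c at 9.52 ± 0.511 (SD, n = 3), A/J at 9.44 ± 0.719 (SD, n = 4), C57BL/6J at 8.85 ± 0.376 (SD, n = 4), DBA/2J at 8.21 ± 0.115 (SD, n = 3) and 129X1/SvJ at 8.05 ± 0.284 (SD, n = 3). No neighbours in this order differed (adjusted p from 0.115 to 0.987 by limma), whereas A/J and Balb/c each exceeded DBA/2J and 129X1/SvJ by 1.24 to 1.46.
The strain range of Bcl2 at T0 was 1.86 within the arrays numbered 1 and 2 and 1.19 within those numbered 3 to 5. As Bcl2's own T0 values drew that split, these ranges are no separate support for the strain test. The T cell score at T0 ran in a like order, at 0.397 in A/J mice, 0.323 in Balb/c mice, 0.228 in C57BL/6J mice, 0.146 in DBA/2J mice and 0.0784 in 129X1/SvJ mice, and the B cell score was highest in DBA/2J (1.06) and 129X1/SvJ (1.29). The strain range of Bcl2 at T0 was 1.05 (adjusted p = 0.03) with the T cell score as a covariate, and the part of B cells in it was not tested.

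For Bcl2l1 the T0 order was A/J at 8.13 ± 0.296 (SD, n = 4), Balb/c at 7.92 ± 0.339 (SD, n = 3), DBA/2J at 7.65 ± 0.167 (SD, n = 3), C57BL/6J at 7.31 ± 0.327 (SD, n = 4) and 129X1/SvJ at 6.54 ± 0.0896 (SD, n = 3). The step from C57BL/6J to 129X1/SvJ was called (0.77, adjusted p = 0.00449 by limma), and the 3 higher steps were not. For 10.2% of all genes 1 strain stood outside all arrays of the other 4 at T0. The red cell marker score followed the same order, at 1.14 in A/J mice, 0.387 in Balb/c mice, 0.677 in DBA/2J mice, -0.618 in C57BL/6J mice and -2.23 in 129X1/SvJ mice, apart from an exchange of Balb/c and DBA/2J. All 6 measured red cell markers differed between strains at T0 and again at T1. Their mean change from T0 to T1 was not called, with adjusted p from 0.337 to 0.885. Balb/c replicate 2, low in that score at both times (-0.74 and -1.37), was also the lowest Balb/c array for Bcl2l1 at both times (7.54 and 9.15). Its T1 array was the one that correlated least with its group (mean r 0.948). With the red cell score as a covariate the T0 range of Bcl2l1 was 0.76 (adjusted p = 0.037 by limma), while its mean change with stimulation was 1.87 (adjusted p = 6.16e-22). Strain and red cell score varied together, and the part of red cells in the strain order of Bcl2l1 was not tested.

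**Figure D3:**
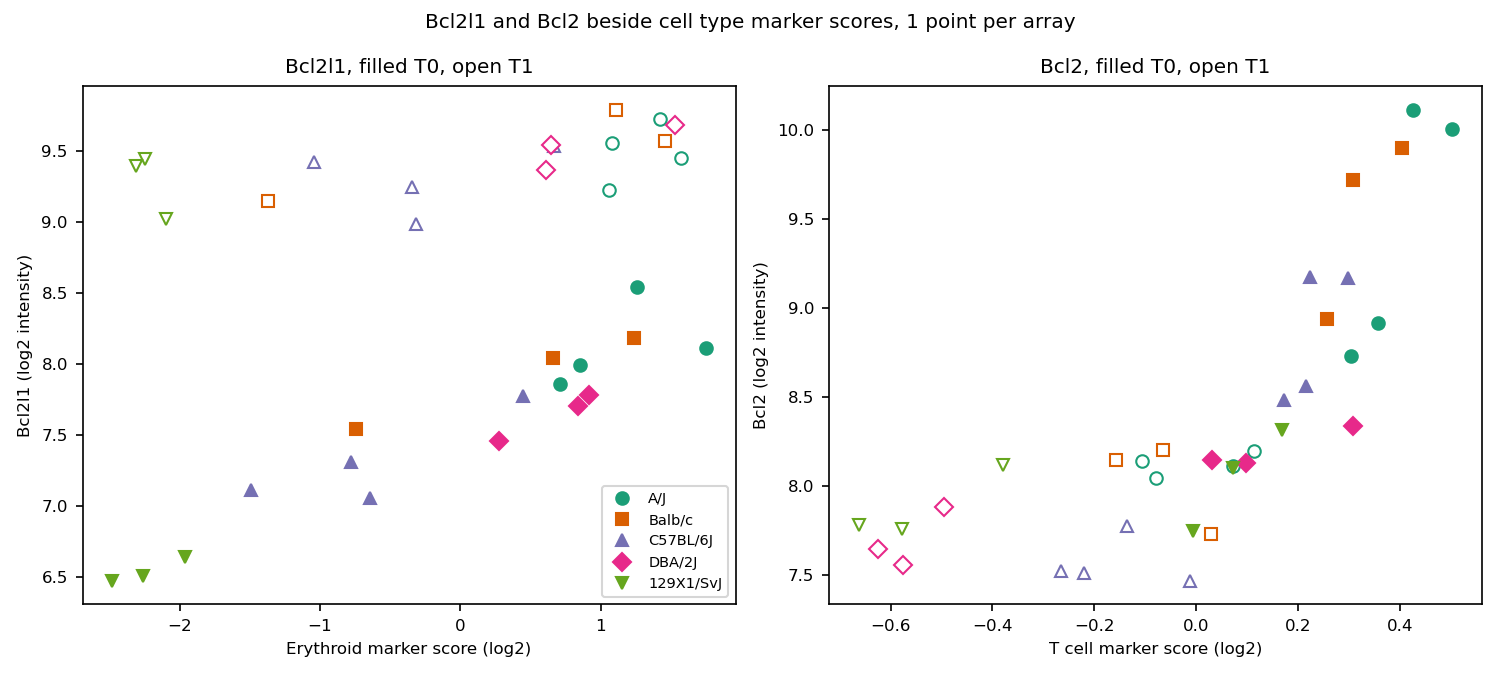
Log2 intensity of Bcl2l1 against the red cell marker score (left) and of Bcl2 against the T cell marker score (right), 1 point per array, strains by symbol and colour, T0 filled and T1 open. The 129X1/SvJ arrays have the lowest red cell scores, -2.48 to -1.96 at T0, and at T1 their Bcl2l1 values lie among those of the other strains. T cell scores are lower at T1 than at T0 in each strain's mean.

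For Mcl1 at T0 the step from A/J (11.54 ± 0.107, SD, n = 4) to DBA/2J (11.26 ± 0.0394, SD, n = 3) was called at 0.28 (adjusted p = 0.0333 by limma). Balb/c and C57BL/6J lay with A/J, and 129X1/SvJ (11.19 ± 0.0343, SD, n = 3) with DBA/2J. The B cell score at T0 was also highest in DBA/2J (1.06) and 129X1/SvJ (1.29), and its part in the order of Mcl1 was not tested. With the T cell score as a covariate the T0 range of Mcl1 was 0.38 (adjusted p = 0.013 by limma). With only the arrays numbered 1 and 2 the strain test of Mcl1 gave a range of 0.50 (adjusted p = 0.0502), and with those numbered 3 to 5 a range of 0.38 (adjusted p = 0.48). Bcl2l11 had another order, with C57BL/6J (9.19) and Balb/c (9.16) above DBA/2J (8.92), 129X1/SvJ (8.77) and A/J (8.68). The score of CD8 T and NK cell markers (6 of 8 measured) was 0.326, 0.3, -0.0873, -0.0125 and -0.384 in the same strains, and its part in the order was not tested. A/J lay 0.51 below C57BL/6J (adjusted p = 0.000206) and 0.48 below Balb/c (adjusted p = 0.00299). Its strain test was kept within the arrays numbered 1 and 2 (0.51, adjusted p = 0.033) and lost within those numbered 3 to 5 (0.56, adjusted p = 0.203). Over the 10 pairs of strains and 9 genes, 21 differences were called at T0, of which 6 were in Mcl1, 5 each in Bcl2 and Bcl2l1, 4 in Bcl2l11 and 1 in Pmaip1 (A/J below C57BL/6J by 0.67, adjusted p = 0.0205). Over all genes 7.01% of such differences were called.

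At T1 the strains differed in Bcl2l11 and Bid, 2 of 9 genes, against 31% of all genes. The survival genes were not called, with ranges of 0.25 for Bcl2l1 (adjusted p = 0.646), 0.56 for Bcl2 (adjusted p = 0.265) and 0.16 for Mcl1 (adjusted p = 0.509). Bcl2l11 ranged over 0.59 (adjusted p = 0.000294), from A/J at 8.63 ± 0.0789 (SD, n = 4) to DBA/2J at 9.22 ± 0.16 (SD, n = 3). The highest A/J array (8.70) lay under the lowest of the other strains (8.73). Within the arrays numbered 1 and 2, and within those numbered 3 to 5, the range was 0.58 and 0.60 (adjusted p = 0.12 and 0.0893). Bid ranged over 0.72 (adjusted p = 0.0203), from C57BL/6J at 6.79 ± 0.435 (SD, n = 4) to 129X1/SvJ at 7.50 ± 0.0969 (SD, n = 3), whose arrays lay above all others. For 8.43% of all genes 1 strain stood outside all others at T1. The Bid range was 0.43 within the arrays numbered 1 and 2 (adjusted p = 0.465) and 1.03 within those numbered 3 to 5 (adjusted p = 0.0148). The Bid test lost its call without C57BL/6J T1 replicate 3 (0.0653) or 4 (0.0615) or 129X1/SvJ T1 replicate 1 (0.0755), and with the T cell score as a covariate (0.47, adjusted p = 0.119). Of the strain pairs, 4 were called at T1, 3 in Bcl2l11 and 1 in Bid, against 10% over all genes.

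The test of strain by time asks whether the change itself differed between strains. It was called for the 3 survival genes and for no death gene, 3 of 9 where 6.92% of all genes were called. With array weights the death gene Bcl2l11 was called too (0.46, adjusted p = 0.0445). With strain and number as a block Bcl2l11 was called as well (0.51, adjusted p = 0.0346), and Mcl1 was not (0.46, adjusted p = 0.134). The response of Bcl2l1 ranged over 1.38 between strains (adjusted p = 0.00655), that of Bcl2 over 1.33 (adjusted p = 0.0499) and that of Mcl1 over 0.46 (adjusted p = 0.0403). In each of the 3 the strain means of the main fit lay closer together at T1 than at T0. With the red cell score as a covariate the narrowing was small for Bcl2l1, with ranges of 0.763 at T0 and 0.65 at T1. With the T cell score it was small for Bcl2, at 1.05 and 0.959. It was larger for Bcl2l1 with the T cell score (1.8 and 0.574) and for Bcl2 with the red cell score (1.68 and 0.682). The Mcl1 ranges were 0.377 and 0.269 with the T cell score, and 0.444 and 0.176 with the red cell score. For Bcl2 and Mcl1 the strains with the higher start fell further. For Bcl2l1 the strain with the lowest start, 129X1/SvJ, rose most, and A/J with the highest start rose least. A difference in response contains the T0 value, so the order of responses is not independent of the order at T0. Over all genes, 2.08% had this combination of a called strain difference at T0, none called at T1 and a called strain by time test.
With the T cell score as a covariate the strain by time calls of the 3 survival genes were kept. The ranges by limma were 1.71 for Bcl2 (adjusted p = 0.00906), 1.23 for Bcl2l1 (adjusted p = 0.0252) and 0.535 for Mcl1 (adjusted p = 0.0366). The Bcl2l1 call was kept without each array in turn, with adjusted p from 0.00277 to 0.0238. The calls of Bcl2 and Mcl1 lay at the threshold: without 1 array their adjusted p ran from 0.0125 to 0.127 and from 0.0219 to 0.13, and they were lost in 27 and 23 of 34 such fits. Bcl2 was kept only without A/J T0 replicate 1, 4 or 5, replicate 4 of Balb/c T0, replicate 1 of Balb/c T1, or C57BL/6J T0 replicate 3 or 4. Mcl1 was kept only without A/J T0 replicate 4, A/J T1 replicate 4 or 5, replicate 4 of Balb/c T0, replicate 1, 2 or 4 of Balb/c T1, C57BL/6J T0 replicate 4, C57BL/6J T1 replicate 1 or 4, or 129X1/SvJ T1 replicate 2. Within the arrays numbered 1 and 2 the Bcl2 range was 1.67, that of Bcl2l1 1.55 and that of Mcl1 0.58. Within those numbered 3 to 5 they were 0.94, 1.02 and 0.33. The calls of Bcl2l1 and Mcl1 were lost in both parts, and that of Bcl2 in the second. As the split was drawn from Bcl2's own T0 values, the Bcl2 range in the first part is no separate support.

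The rest of the pathway was read from lists chosen with earlier results of these data known. Of 6 further survival genes 2 were measured above the limit. Bcl2a1c, a gene of the A1 cluster induced by NF-kappaB, rose by 1.37 (SE 0.116, adjusted p = 3.28e-12), and Bcl2l2 (Bcl-w) changed by -0.02. The A1 genes are near-identical copies, so the probe set may read several of them. The Bcl2a1c change was 0.69 (adjusted p = 0.108) with the T cell score as a covariate.
All 4 further death genes were called, where 82.3% of all genes were. Bok rose by 0.26 and Hrk, a BH3-only gene, by 0.25, while the BH3-only genes Bmf and Bik fell by 0.48 and 0.14. The Bik call (adjusted p = 0.046) was lost in 22 of 34 fits without 1 array, with adjusted p up to 0.0869 without Balb/c T0 replicate 4. Bok lost its call within the arrays numbered 1 and 2 (0.28, adjusted p = 0.0581) and within those numbered 3 to 5 (0.24, adjusted p = 0.0786), and Hrk within the latter (0.17, adjusted p = 0.159). Where 46.3% of all genes fell, all 5 genes measured above the limit in a related group of 7 fell, with a median of -0.97. They were Bnip3 (by 1.48), Bnip2 (by 1.15) and Bnip3l of the BNIP genes, and Bcl2l12 and Bcl2l13 of the genes with Bcl2 homology. Bnip3 is a mitophagy receptor that hypoxia induces.

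Downstream of the mitochondria 12 of 16 measured genes fell and 2 rose, where 46.3% of all genes fell and 36% rose. Their median was -0.51, against -0.07 for all genes. Cycs, cytochrome c, rose by 1.07 (SE 0.077), and Vdac2, a membrane channel that binds Bak1, by 0.17 (SE 0.0442). Apaf1, the scaffold of the apoptosome, fell by 1.52 (SE 0.0556, adjusted p = 3.35e-21), and Casp9, the caspase it activates, by 0.99 (SE 0.0706). Casp2 differed in its response between strains, from -0.73 in C57BL/6J to -1.24 in 129X1/SvJ (range 0.51, adjusted p = 0.0132).
In the death receptor pathway 5 of 9 measured genes rose and 4 fell, all 9 called where 82.3% of all genes were. Cflar, which encodes the inhibitor FLIP, rose by 1.19 (SE 0.0564) and the receptor Fas by 0.83 (SE 0.0892). The adaptors Fadd and Tradd fell by 0.88 (SE 0.0591) and 0.81 (SE 0.0687). Tradd changed by -0.20 (adjusted p = 0.412) with the T cell score as a covariate. The response of Fasl, the ligand of Fas, ranged over 1.09 between strains (adjusted p = 0.029), from -0.11 in C57BL/6J to 0.98 in Balb/c. It lost that call without C57BL/6J T0 replicate 2, 3 or 4 or C57BL/6J T1 replicate 3 or 4, with adjusted p up to 0.0878.
Of 28 measured upstream regulators 12 rose and 11 fell, where 36% of all genes rose and 46.3% fell. The largest rises were Myc at 3.22 (SE 0.0614) and Il2ra, the interleukin-2 receptor chain, at 2.68 (SE 0.0772). Il7r, the interleukin-7 receptor, fell by 2.78 (SE 0.067) and Ppp3ca, the calcineurin catalytic subunit, by 1.15 (SE 0.0625). The Il2ra response ranged over 1.66 between strains (adjusted p = 6.07e-06), from 1.94 in Balb/c to 3.60 in DBA/2J. With the T cell score as a covariate the calls of Bok, Hrk, Bik and Vdac2 were lost, as were those of the Casp2 (adjusted p = 0.109) and Fasl (adjusted p = 0.0633) responses. The Casp2 and Fasl responses were also not called within the arrays numbered 1 and 2 or within those numbered 3 to 5.

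**Figure D4:**
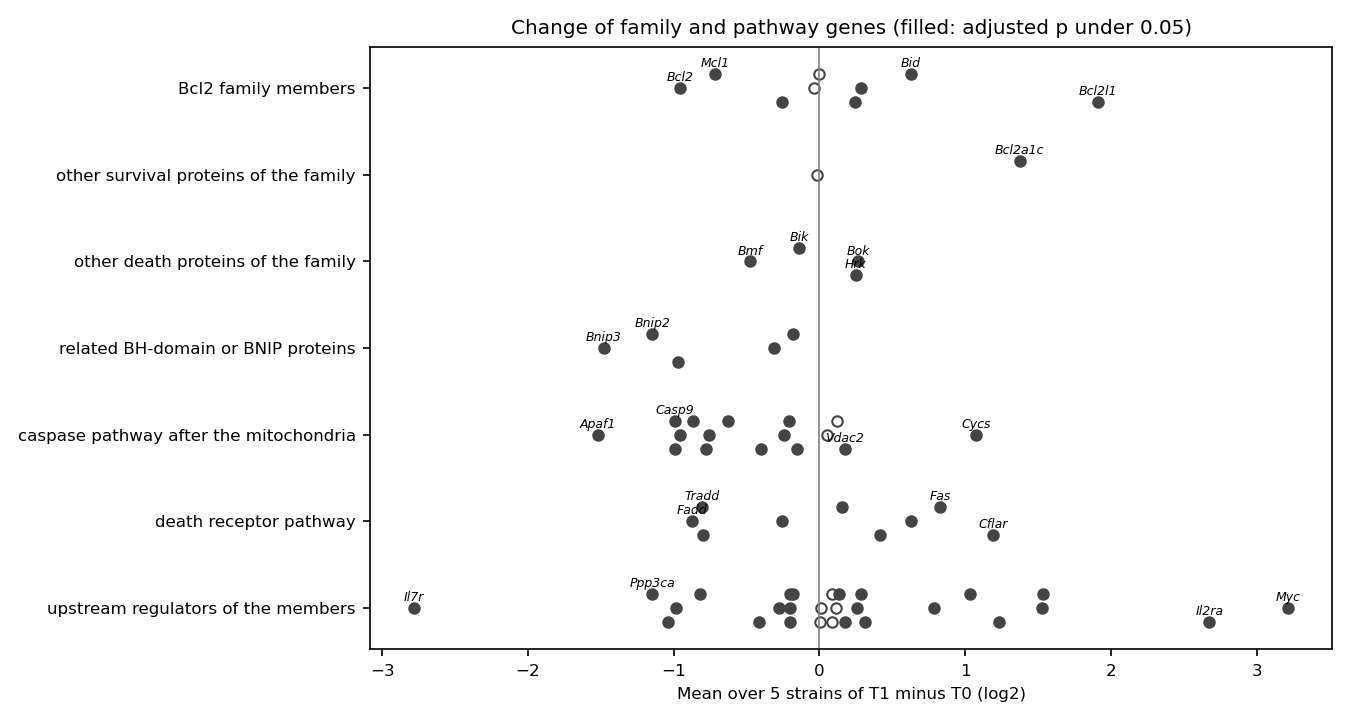
Mean change with stimulation (log2, horizontal) of each measured gene of the family and of the pathway lists, 1 point per gene, filled where the adjusted p was under 0.05. The 9 family genes spread from -0.95 for Bcl2 to 1.91 for Bcl2l1. The group of related BH-domain or BNIP genes lies wholly left of 0, and 12 of 16 genes downstream of the mitochondria fell, where 46.3% of all genes fell.

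Across the 34 arrays, Pearson's r named the genes most like each member, as a description that stimulation dominates. Bcl2l1 was most like Gpr183 (r = 0.96) and Ppp1r15a (0.957), Bcl2 like Ggact (0.934) and Tdgf1 (0.916), Mcl1 like Zfp217 (0.972) and Relch (0.971), and Bid like Mcoln2 (0.918) and Rftn1 (0.911). With the mean of each time removed, Bcl2l1 was most like Glrx5 (0.89) and Cdr2 (0.85). Glrx5 encodes a mitochondrial protein of iron-sulphur cluster assembly that heme synthesis in red cells needs. Bcl2 was then most like Cnp (0.878) and Ggact (0.873), Mcl1 like Tmie (0.855) and Sgpp1 (0.852), Bcl2l11 like Rif1 (0.788) and Slfn8 (0.767), Pmaip1 like Bhlhe40 (0.858) and Tnip3 (0.819), and Bak1 like Mettl26 (0.757). Bbc3 and Bad had no neighbour above 0.549 and 0.596 on that measure. The arrays share strain, number and cell makeup, so these values carry no test.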

How the data were processed

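CD4+ spleen cells were measured on 34 Affymetrix arrays. Per the labels, the authors processed them with RMA, and the deposited values are log2 intensities of 35556 probe sets. No version of RMA or of the probe set definitions is stated. Of the probe sets, 21789 were listed with 1 symbol, and 21698 of their gene identifiers were found in the RefSeq table of GRCm38.p6. Each gene took its brightest such probe set. A gene was kept when its highest group mean reached 5.327, the median of all values.

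One linear model of 10 groups was fitted with limma 3.58.1 in R 4.3.3 (24 residual degrees of freedom). Contrasts were T1 minus T0 per strain and averaged, F tests over strains at T0, at T1 and of the response, and the 10 strain pairs at each time. Fits were tested on simulated data. Replicates are called biological, without further detail, so p-values measure the spread between these samples.

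The members and lists were chosen with earlier results of these data known. From each other list, the text names up to 2 largest called rises, 2 largest called falls and the 1 gene with the largest called range of response. Alternatives changed the filter, normalization, variance model, weights, probe set rule, covariates and replicate block, and left out each array. Those chosen after seeing the data were the T cell score as a covariate and the arrays numbered 1 and 2 or 3 to 5 alone. The NF-kappaB consensus was set after a looser pattern matched too many promoters.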

Additional observations from a re-analysis of the deposited data

Results flagged for a closer look

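The response to stimulation differed between strains, by the test of that difference, for Bcl2l1 (a range of 1.38 on the log2 scale), Bcl2 (1.33) and Mcl1 (0.457). In groups of 4 arrays, 1 array lay far from the other 3 in 2 of 36 cases, where chance gives about 1 in 20. Bcl2 read 7.77 in C57BL/6J T1 replicate 3, against 7.47 to 7.52 in the other arrays. Bid read 6.58 in A/J T0 replicate 4, against 6.24 to 6.26.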

How the results depend on the processing

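Under the alternatives that kept all arrays, the T cell score aside, 791 of 820 results of single named genes kept their side of the threshold. In that set 12 lost and 17 gained a call, and no result called in either fit changed sign. Leaving out 1 array at a time, 3382 of 3502 kept their side, 110 were lost and 10 gained, again with no called result changing sign. Results called in neither fit could change sign and still count as kept. Pmaip1 in C57BL/6J, for example, ran from -0.146 to 0.216 without 1 array. With array weights 3406 genes differed between strains at T0 and 1639 in strain by time, and 1 member differed at T1, where Bid had an adjusted p of 0.064. With no filter, 1 member was called for strain by time (Bcl2 0.0667, Mcl1 0.0961). Bcl2 also lost that call with a variance trend (0.0728) and Mcl1 with quantile normalization again (0.0686). Members called without 1 array ran from 2 to 4 in DBA/2J (2 without DBA/2J T1 replicate 3 or T0 replicate 4), from 1 to 2 for strain at T1 and from 1 to 3 for strain by time. Bad lost its Balb/c call without Balb/c T0 replicate 1 or T1 replicate 2 (adjusted p up to 0.158) and its C57BL/6J call without C57BL/6J replicates 1 or 3 of either time or T1 replicate 2 (up to 0.123). Bak1 lost its C57BL/6J call without C57BL/6J T0 replicate 4 (0.0685).

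With the T cell score as a covariate, 4812 genes were called for mean stimulation, 3071 in DBA/2J, 3383 in 129X1/SvJ, 1775 for strain at T1 and 522 for strain by time. Members called were 2 for mean stimulation, 2 for A/J, 3 for Balb/c, 3 for C57BL/6J, and 1 each for DBA/2J and 129X1/SvJ. For strain at T0 4 members were called, for strain at T1 1, with 2 strain pairs at T1, and for strain by time 3. Pmaip1 turned to -0.16 for mean stimulation, Bid to -0.055 in DBA/2J, and Bcl2 to 0.682 in DBA/2J and 0.872 in 129X1/SvJ, none of them called. The score itself fell at T1, so the covariate shares time with the contrast.

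Within the arrays numbered 1 and 2, 976 genes differed by strain at T0, 776 at T1 and 111 in strain by time, with 1 member called for strain by time and 0 at T1 (2 at an unadjusted p under 0.05 by limma). Within those numbered 3 to 5 the counts were 927, 1778 and 175, with 2897 for stimulation in Balb/c and 4143 in 129X1/SvJ. There 4 members were called for mean stimulation, 3 in C57BL/6J, 1 for strain at T1 and 0 for strain by time (1 at an unadjusted p under 0.05 by limma). These fits hold fewer arrays. DBA/2J has 1 array per time within numbers 1 and 2, and Balb/c and 129X1/SvJ have 1 per time within numbers 3 to 5. A strain change there has no replicates of its own and takes its spread from the other groups.

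T0 and T1 arrays of 1 strain and number deviated together with r from -0.0785 to 0.474, with 3 pairs under 0.1 (A/J number 4, DBA/2J numbers 2 and 4). As the labels do not say that a number marks 1 animal, the main tests did not pair the samples, although 13 of 17 arrays matched their own number best. Counts of pairs of the same number only describe the arrays. With the replicate block of strain and number, 9662 genes were called for mean stimulation, 1108 for strain by time, and 7 and 3 members. Under that block Mcl1 lost strain by time (0.134), Fasl lost it (0.0707) and Bcl2l11 gained it (0.0346). With number over strains as a block 4 members were called at T0 and 2 at T1.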
